A study of Mus musculus with 12 samples.

Results

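Apolipoprotein genes and the assembly factor of very low density lipoprotein (VLDL) were followed through regeneration of mouse liver with and without Socs2. The genes were Apob, Mttp, Apoa1, Apoa2, Apoa4, Apoa5, Apoc1, Apoc2, Apoc3 and Apoe. They are the members of a chosen list of 10 genes out of 17097 genes measured. Their readouts were the 12 probe sets, of 28898 that name a single gene, whose platform annotation names a member gene alone. Where a gene had more than 1 probe set, the one with the highest mean log2(value + 16) over the 12 arrays stood for it, and the other is given beside it. RNA came from whole livers of adult C57BL/6 mice (wildtype) and of adult Socs2-null mice kept on the same C57BL/6 background. Livers were taken 24 h or 36 h after surgical removal of part of the liver (a 2/3 hepatectomy), and the 0 h livers came from age-matched mice without surgery. Each of the 6 groups of genotype and time held 2 pools of RNA from 3 animals each, and every pool was hybridised to 1 array. The spread between arrays is therefore a spread between pools. There was no sham-operated group, so the effect of removing liver and that of anaesthesia and surgery cannot be told apart.

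VLDL is the particle in which hepatocytes export triglyceride. The microsomal triglyceride transfer protein, the product of Mttp, loads lipid onto apolipoprotein B as it enters the endoplasmic reticulum, and 1 molecule of apolipoprotein B stays with each particle until it is cleared. The smaller apolipoproteins move between particles. In plasma those of the A group shape high density lipoprotein, those of the C group set how fast lipoprotein lipase acts, and apolipoprotein E is a ligand for uptake receptors. A liver that regenerates first fills with fat and later empties it.

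The labelled tissue and genotype were borne out by their markers. Of the 8 listed hepatocyte markers 6 were measured, and albumin read between 15525 and 18704 on all 12 arrays. Socs2 itself read 116 to 546 on the 6 wildtype arrays and 23.2 to 29.5 on the 6 null arrays, below the brightest control tag of any array (33.0 to 45.0). Array medians lay between 43.5 and 52.3. The highest value on an array was 23123 to 24717 at 0 h and 19231 to 20374 at 36 h. Neutrophil markers (3 of 4 measured) summed to 105 to 133 at 0 h and to 224 to 1714 later, with the highest sum in 1 Socs2-null pool at 24 h. Erythroid markers (2 of 3 measured) summed to 1113 to 1330 at 0 h and to 384 to 599 later. In bulk tissue fewer cells of a type and less RNA per cell cannot be told apart, and this holds for every fall given here.

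The main changes were with time after hepatectomy. Apoa4 rose 18.4-fold in wildtype liver by 24 h, Apoc2 rose 1.81-fold, and Apob fell at 24 h and then rose to 3.22-fold its 0 h level by 36 h. Apob was read by 1 probe set, and its 24 h fall did not pass when certain single pools were left out. The bright genes Apoa2, Apoc1 and Apoe fell by 0.42 or less on the log2 scale. In wildtype liver at 24 h, 6 of the 10 members were called, against 25.8% of all genes. Of these 2 were higher and 4 lower (10.2% and 15.6% of all genes). At 36 h, 9 were called, against 15.2% of all genes, 5 higher and 4 lower (5.69% and 9.5%). In Socs2-null liver 6 members were called at 24 h, against 24.2% of all genes, 3 higher and 3 lower (10.8% and 13.5%). At 36 h, 7 were called, against 20.0% of all genes, 4 higher and 3 lower (9.84% and 10.1%). A gene was called when its adjusted p in limma, with Benjamini-Hochberg adjustment over all 17097 genes, was under 0.05. The median change over the 10 members was -0.14 on the log2 scale in wildtype at 24 h and 0.09 at 36 h, and -0.13 and -0.03 in Socs2-null liver. Over all genes it was -0.08, -0.06, -0.04 and -0.03 in the same order. Among all called genes the share that was higher was 39.7% in wildtype at 24 h, 37.5% at 36 h and 44.5% in Socs2-null at 24 h. With each array centred on its median, these shares were 65.3%, 53.4% and 60.6%, and the median change of all genes in wildtype at 24 h moved from -0.08 to 0.04.

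Counted by pools that did not overlap, 4 members lay above and 6 below 0 h in wildtype at 24 h (26.9% and 43.8% of all genes), and 5 above and 5 below at 36 h (24.3% and 40.3%). In Socs2-null liver it was 3 above and 5 below at 24 h (27.5% and 34.5%), and 4 and 5 at 36 h (28.4% and 33.6%). From 24 h to 36 h, 3 members were above and 3 below in wildtype (23.3% and 22.8%), and 3 above and 0 below in Socs2-null liver (19.1% and 13.8%).

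**Figure D1:**
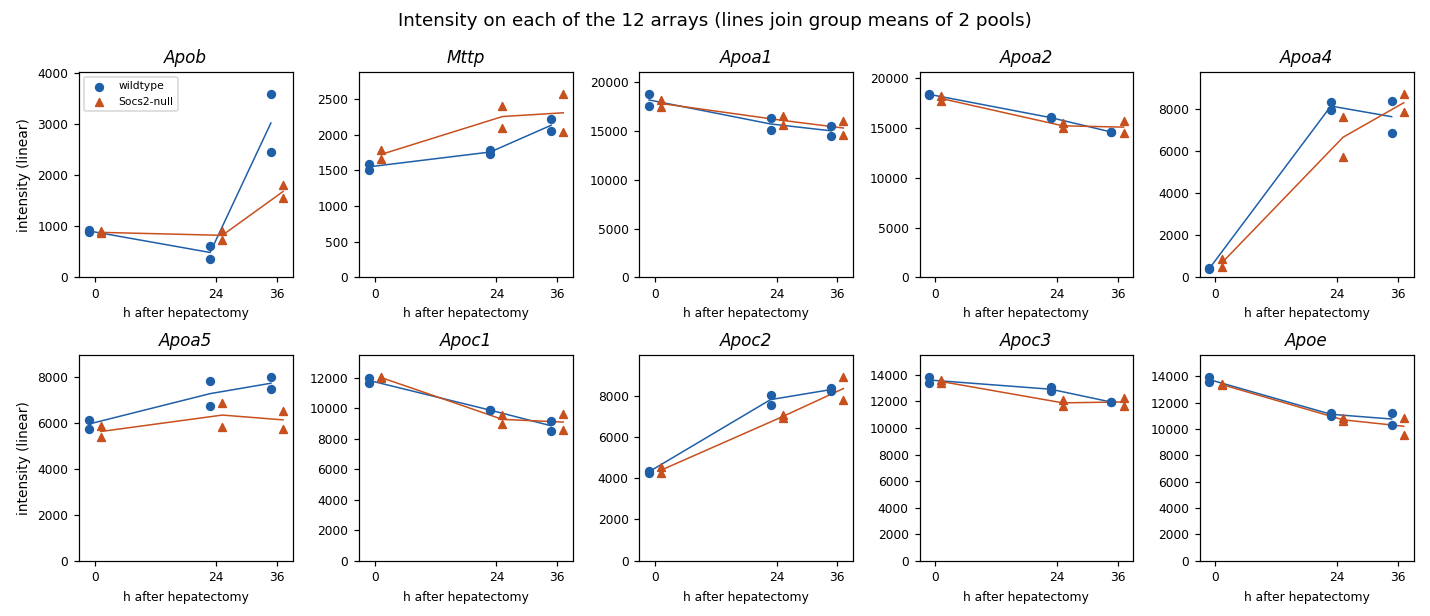
Intensity (linear scale, from 0, 1 panel per gene) on each of the 12 arrays against hours after hepatectomy, with circles for wildtype pools, triangles for Socs2-null pools and lines through the means of 2 pools. Apoa4 lies at 390 to 861 at 0 h and at 5708 to 8717 later, while the panels of Apoa1, Apoa2, Apoc1, Apoc3 and Apoe start from high values and lie somewhat lower later.

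Apob encodes the protein around which each VLDL particle forms, and it showed the largest change between 24 h and 36 h. Its 1 probe set read 886 and 937 in the wildtype 0 h pools, 862 and 903 in the Socs2-null 0 h pools, 620 and 357 in wildtype at 24 h, 914 and 735 in Socs2-null at 24 h, 3594 and 2455 in wildtype at 36 h, and 1551 and 1815 in Socs2-null at 36 h. The wildtype pools were thus lowest at 24 h and highest at 36 h, with no overlap between any 2 of the wildtype times. The Socs2-null pools overlapped between 0 h and 24 h and lay higher at 36 h.

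In wildtype liver Apob fell by 0.93 ± 0.24 on the log2 scale at 24 h (SE, 2 pools against 2, limma adjusted p = 0.0176). It then rose by 2.62 ± 0.24 from 24 h to 36 h, which is 6.13-fold (adjusted p = 0.00458). That rise had the smallest p and the largest size of all 17097 genes in this comparison, in which 1 member and 0.24% of all genes were called (0.216% higher). Against 0 h the wildtype 36 h level was 3.22-fold higher (1.69 ± 0.24, adjusted p = 0.0014). In Socs2-null liver the change at 24 h was -0.10 (95% interval -0.63 to 0.42), the rise over 0 h at 36 h was 1.89-fold (0.92 ± 0.24, adjusted p = 0.021), and the difference from 24 h to 36 h was 1.02 ± 0.24 (adjusted p = 0.592). No member was called between 24 h and 36 h in Socs2-null liver, where 0.00585% of all genes were called by limma, 1 gene in number. An unadjusted p under 0.05 was reached there by 2 members, against 7.18% of all genes.

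The 36 h rise of Apob in wildtype was called under all 20 alternatives, against both 0 h and 24 h. The 24 h fall was not called without wildtype 0 h replicate 1 (adjusted p = 0.0779), wildtype 0 h replicate 2 (0.101) or wildtype 24 h replicate 2 (0.129). The log2 change was then between -1.31 and -0.54 over all alternatives. The 36 h rise in Socs2-null liver was not called without Socs2-null 0 h replicate 1 (0.104) or 2 (0.0894), or without Socs2-null 36 h replicate 1 (0.0517) or 2 (0.106). The probe set was designed on an expressed sequence tag, and where along the Apob transcript it lies was not examined.

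Promoter sequence was looked up for the members, and 4 stretches are printed. The RefSeq promoter table (GRCm38.p6) held 8 of the 10 members, Apoc1 and Apoc3 being the others. The motifs searched, on both strands of the 250 bases before each of 32851 starts, were the hepatocyte nuclear factor 4 element CAAAGTCCA, the direct repeat 1 of nuclear receptors, the palindromic hepatocyte nuclear factor 1 element and the TATA box TATAAA. Their shares of all promoters were 0.384%, 0.0335%, 0.00913% and 12.4%. Among the members only TATAAA was found, before the starts of Apoa5 and Apob and before 1 of the listed starts of Apoa2 and of Apoe. It began 212 bases before that start of Apoa2, and 96 and 100 bases before that of Apoe. Only sequences matching these letters were counted. Sites that vary from them were not looked for, so the search cannot show that a factor's site is absent. The bases just before the annotated gene are shown for Apob, whose level changed most between the later times, and for 3 neighbours of 1 gene cluster that moved by very different amounts. Capitals mark TATAAA, and all 4 lie on the plus strand at chr12:7977527-7977628, chr9:46228480-46228629, chr9:46240694-46240843 and chr9:46268458-46268607.
Apob: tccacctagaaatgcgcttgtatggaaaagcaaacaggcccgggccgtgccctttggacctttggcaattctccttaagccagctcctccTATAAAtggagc
Apoa1: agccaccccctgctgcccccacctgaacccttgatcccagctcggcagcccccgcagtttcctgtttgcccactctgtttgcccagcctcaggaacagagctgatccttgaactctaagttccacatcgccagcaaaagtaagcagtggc
Apoa4: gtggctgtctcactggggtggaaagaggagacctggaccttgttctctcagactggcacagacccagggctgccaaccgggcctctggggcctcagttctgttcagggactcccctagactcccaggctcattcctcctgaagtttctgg
Apoa5: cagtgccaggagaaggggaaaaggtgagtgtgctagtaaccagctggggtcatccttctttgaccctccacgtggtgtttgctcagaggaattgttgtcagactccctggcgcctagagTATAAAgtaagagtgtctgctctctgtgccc
The match began 31 bases before the start of the gene record of Apoa5 and 12 before that of Apob. Counted to the starts used in the search, it began 31 or 56 bases before those of Apoa5 and 60 before that of Apob. The match is a description of letters and was not tested against the expression values.

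Mttp, the lipid transfer protein that Apob needs for secretion, rose after hepatectomy in 3 of the 4 comparisons with 0 h and was read by 2 probe sets. The probe set that stood for the gene read 1592 and 1503 in wildtype at 0 h, 1785 and 1658 in Socs2-null at 0 h, 1784 and 1727 in wildtype at 24 h, 2406 and 2097 in Socs2-null at 24 h, 2215 and 2044 in wildtype at 36 h, and 2569 and 2040 in Socs2-null at 36 h. The other read 666 and 684, 677 and 700, 858 and 800, 1216 and 1033, 1574 and 1286, and 1523 and 1163 in the same order. On the first, each group after surgery lay above its own 0 h group without overlap.

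By the first probe set Mttp rose 1.37-fold in wildtype at 36 h (0.46 ± 0.13, limma adjusted p = 0.0347). In Socs2-null liver it rose 1.30-fold at 24 h (adjusted p = 0.0495) and 1.33-fold at 36 h (adjusted p = 0.0438), and in wildtype at 24 h the change was 0.18 ± 0.13 (adjusted p = 0.319). The other probe set, in a fit over all probe sets, gave larger changes, of 1.06 ± 0.15 in wildtype at 36 h (adjusted p = 0.00146), 0.69 ± 0.15 in Socs2-null at 24 h (adjusted p = 0.00871), 0.94 ± 0.15 at 36 h (adjusted p = 0.00182) and 0.77 ± 0.15 from 24 h to 36 h in wildtype (adjusted p = 0.0388). The direction was the same on both, and the changes were larger on the second.

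The calls of Mttp on the first probe set were close to the threshold. In wildtype at 36 h the call was lost without any of the wildtype 0 h, Socs2-null 0 h or wildtype 36 h pools (adjusted p from 0.054 to 0.214) and with quantile normalization (0.0636). In Socs2-null at 24 h it was kept in 8 of 20 alternatives and lost without any pool other than Socs2-null 24 h replicate 2 and both Socs2-null 36 h pools (0.0514 to 0.223), with quantile normalization (0.103), with a pseudocount of 64 (0.0509) and with only the arrays compared (0.0887). At 36 h it was kept in 11 of 20 and lost without any wildtype 0 h, Socs2-null 0 h or wildtype 24 h pool or Socs2-null 36 h replicate 1 (0.0591 to 0.27), with quantile normalization (0.0827) and with only the arrays compared (0.098).

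Apoa4 encodes a lipid-responsive apolipoprotein made by the intestine and, in the mouse, by the liver. It read 467 and 390 in wildtype at 0 h, 861 and 495 in Socs2-null at 0 h, 7941 and 8339 in wildtype at 24 h, 5708 and 7608 in Socs2-null at 24 h, 6879 and 8391 in wildtype at 36 h, and 8717 and 7876 in Socs2-null at 36 h. Every pool after surgery lay above every pool at 0 h.

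In wildtype liver Apoa4 was 18.4-fold higher at 24 h (4.20 ± 0.23, limma adjusted p = 5.51e-06) and 17.2-fold higher at 36 h (4.10 ± 0.23, adjusted p = 7.09e-06). In Socs2-null liver it was 9.87-fold higher at 24 h (3.30 ± 0.23, adjusted p = 1.86e-05) and 12.4-fold higher at 36 h (3.63 ± 0.23, adjusted p = 1.12e-05). By size these changes ranked 3 and 5 of 17097 genes in wildtype, and 14 and 11 in Socs2-null liver. They were called under all 20 alternatives. Between 24 h and 36 h the level differed by -0.10 in wildtype (95% interval -0.60 to 0.40) and 0.33 in Socs2-null liver (95% interval -0.17 to 0.83).

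The intestinal epithelium markers Vil1 and Alpi were not above background on any of the 12 arrays. The summed level of the 3 measured intestinal markers was 1323 to 1618 at 0 h and 1614 to 2604 later, and nearly all of it was Fabp2, at 1260 to 2561. Neutrophil markers, whose summed level was higher at the later times, had 1 of 3 members called, in Socs2-null liver at 24 h, and their part in the Apoa4 result was not tested.

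Apoa5 encodes a plasma regulator of lipoprotein lipase and lies in the same chromosome 9 cluster as Apoa1, Apoc3 and Apoa4. In the RefSeq annotation (GRCm38.p6) the 4 genes span 43.3 kb. Apoa5 read 5736 and 6134 in wildtype at 0 h, 5839 and 5387 in Socs2-null at 0 h, 6718 and 7799 in wildtype at 24 h, 5806 and 6848 in Socs2-null at 24 h, 7446 and 7975 in wildtype at 36 h, and 6496 and 5740 in Socs2-null at 36 h. In wildtype liver both later groups lay above 0 h without overlap, while the 3 Socs2-null groups overlapped one another. The wildtype rise at 36 h was 1.30-fold (0.38 ± 0.11, limma adjusted p = 0.044). At 24 h it was 0.29 ± 0.11 (adjusted p = 0.0813), and in Socs2-null liver the changes were 0.17 and 0.12 (95% intervals -0.08 to 0.41 and -0.12 to 0.37). The 36 h call was lost without any wildtype 0 h, Socs2-null 0 h or wildtype 36 h pool (adjusted p from 0.062 to 0.23) and with quantile normalization (0.103), with all probe sets averaged (0.052) or with a replicate block (0.056). The 24 h change in wildtype passed with arrays centred on their medians (0.0235) or with only the arrays compared (0.0326).

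**Figure D2:**
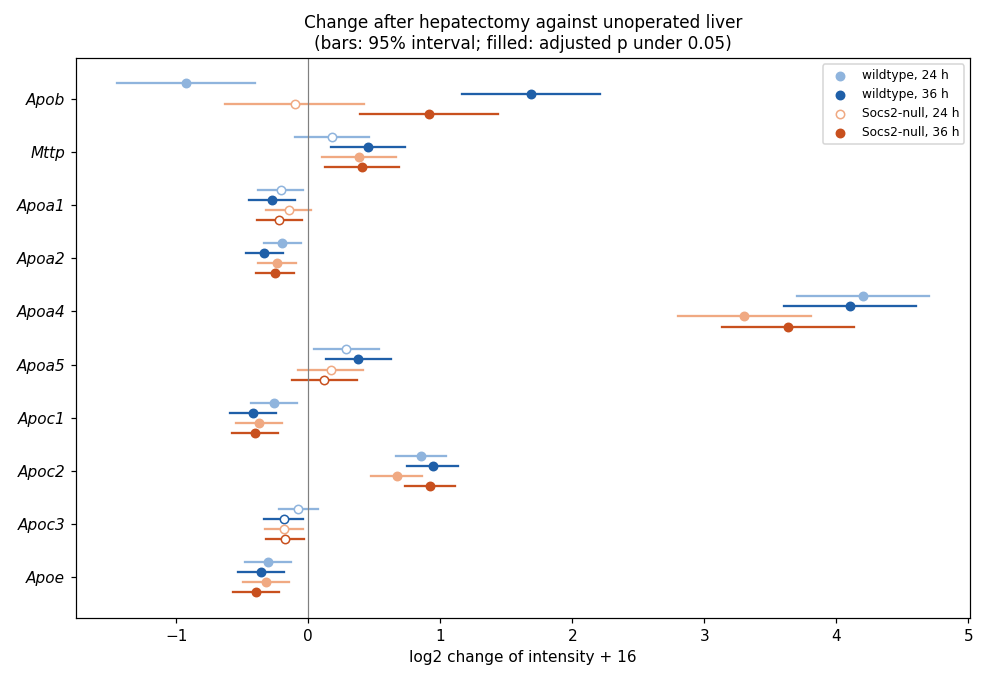
Change on the log2(intensity + 16) scale of each member at 24 h and 36 h against 0 h, in wildtype (blue) and Socs2-null (orange) liver, with 95% intervals as bars and filled points for limma adjusted p under 0.05. Apoa4 lies between 3.30 and 4.20, Apoc2 between 0.67 and 0.94, and Apob is on both sides of 0.

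Apoa1 and Apoa2 encode the main proteins of high density lipoprotein, and both read near the top of the intensity scale. Apoa1 read 18786 and 17544 in wildtype at 0 h, 17435 and 18168 in Socs2-null at 0 h, 16289 and 15131 in wildtype at 24 h, 15570 and 16573 in Socs2-null at 24 h, 14485 and 15524 in wildtype at 36 h, and 15978 and 14609 in Socs2-null at 36 h. Its other probe set read 15878 and 14738, 15197 and 16094, 13089 and 12780, 13471 and 13946, 12112 and 13599, and 13686 and 12528 in the same order. On both, all later pools lay below all 0 h pools.

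Apoa2 read 18432 and 18341 in wildtype at 0 h, 17687 and 18242 in Socs2-null at 0 h, 16129 and 15974 in wildtype at 24 h, 14980 and 15473 in Socs2-null at 24 h, 14585 and 14616 in wildtype at 36 h, and 15677 and 14514 in Socs2-null at 36 h. Again all later pools lay below all 0 h pools. Apoa1 passed the test only in wildtype at 36 h, where it fell by 0.28 ± 0.08 on the log2 scale (limma adjusted p = 0.0362). Its second probe set gave -0.25 ± 0.09 there (adjusted p = 0.0726). Apoa2 fell by 0.20 ± 0.07 at 24 h (adjusted p = 0.0464) and by 0.33 ± 0.07 at 36 h (adjusted p = 0.00733) in wildtype. In Socs2-null liver it fell by 0.24 ± 0.07 (adjusted p = 0.0218) and by 0.25 ± 0.07 (adjusted p = 0.0197).

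These small changes depended on the scaling of the arrays. With quantile normalization the 36 h change in wildtype was -0.01 for Apoa1 (adjusted p = 0.909) and -0.07 for Apoa2 (0.516), and in Socs2-null liver that of Apoa2 was -0.05 (0.573). The call of Apoa1 was also lost without any of the wildtype 0 h, Socs2-null 0 h or wildtype 36 h pools (0.0561 to 0.233). That of Apoa2 was lost at 24 h in wildtype without any 0 h pool or any wildtype 24 h pool (0.0702 to 0.19), and at 36 h without either wildtype 0 h pool (0.0699 and 0.0731). In Socs2-null liver it was lost without either Socs2-null 0 h pool or Socs2-null 24 h replicate 1 at 24 h (0.0677 to 0.131), and without either Socs2-null 0 h pool or Socs2-null 36 h replicate 2 at 36 h (0.0739 to 0.132). At 24 h quantile normalization ended the calls of Apoa2 in wildtype (0.395) and Socs2-null liver (0.17). Averaging all probe sets ended that of Apoa1 (0.0563) and that of Apoa2 in wildtype at 24 h (0.0571), and so did the replicate block (0.0539 and 0.067). With only the arrays compared, Apoa2 was not called in Socs2-null liver at 24 h (0.0775) or 36 h (0.0649). Centring on array medians ended the calls of Apoa2 in wildtype at 24 h (0.514) and in Socs2-null liver at 24 h (0.152) and 36 h (0.0645), and that of Apoa1 (0.153). Apoa1 passed in wildtype at 24 h with the dimmest 50% of genes dropped (0.0333) or only the arrays compared (0.0299), and in Socs2-null liver at 36 h with the dimmest dropped (0.0289). Over the 20 alternatives its change in Socs2-null liver at 36 h lay between -0.28 and 0.03. Of the 6 measured hepatocyte markers, 2 were called lower in wildtype at 36 h and 0 higher, and in Socs2-null liver 2 were called in each direction. Their part in these falls was not tested. Among the 100 brightest genes that are not members, 22 were called lower and 24 higher in wildtype at 24 h, and 21 and 25 at 36 h. Their median change was -0.08 and -0.04.

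Apoc2, Apoc1 and Apoe lie together on chromosome 7 in the RefSeq annotation (GRCm38.p6), where the cluster spans 29.7 kb and also holds Apoc4. Apoc2 encodes the obligate activator of lipoprotein lipase. It read 4354 and 4268 in wildtype at 0 h, 4531 and 4246 in Socs2-null at 0 h, 7565 and 8042 in wildtype at 24 h, 6917 and 7047 in Socs2-null at 24 h, 8237 and 8348 in wildtype at 36 h, and 7788 and 8892 in Socs2-null at 36 h. No later pool overlapped any 0 h pool. Apoc2 rose 1.81-fold at 24 h (0.85 ± 0.09, limma adjusted p = 0.000216) and 1.92-fold at 36 h (0.94 ± 0.09, adjusted p = 0.000149) in wildtype. Socs2-null liver showed rises of 1.59-fold (0.67 ± 0.09, adjusted p = 0.000601) and 1.89-fold (0.92 ± 0.09, adjusted p = 9.52e-05). All 4 rises were called under all 20 alternatives.

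Its neighbours moved the other way. Apoc1 encodes a small apolipoprotein that slows particle uptake. It read 11979 and 11684 in wildtype at 0 h, 12044 and 11998 in Socs2-null at 0 h, 9861 and 9892 in wildtype at 24 h, 9545 and 8996 in Socs2-null at 24 h, 8521 and 9187 in wildtype at 36 h, and 9627 and 8565 in Socs2-null at 36 h. All 8 later pools lay below all 4 pools at 0 h. Apoc1 fell by 0.26 ± 0.08 at 24 h (limma adjusted p = 0.0356) and by 0.42 ± 0.08 at 36 h (adjusted p = 0.00667) in wildtype. With Socs2 deleted Apoc1 fell by 0.37 ± 0.08 (adjusted p = 0.00693) and by 0.40 ± 0.08 (adjusted p = 0.00532), and these 2 falls were called under all 20 alternatives. In wildtype the 24 h call was lost without any 0 h pool or any wildtype 24 h pool (0.0569 to 0.177), with quantile normalization (0.0673) and with centring on array medians (0.321). The 36 h call was lost without wildtype 0 h replicate 1 (0.0696) or 2 (0.06).

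Apoe encodes the ligand by which liver receptors clear particle remnants, and is made by hepatocytes and by macrophages. It read 13565 and 13938 in wildtype at 0 h, 13432 and 13335 in Socs2-null at 0 h, 11025 and 11212 in wildtype at 24 h, 10824 and 10571 in Socs2-null at 24 h, 10322 and 11196 in wildtype at 36 h, and 10859 and 9562 in Socs2-null at 36 h. All 8 later pools lay below all 4 pools at 0 h here too. Apoe fell by 0.31 ± 0.08 at 24 h (limma adjusted p = 0.0177) and by 0.35 ± 0.08 at 36 h (adjusted p = 0.0138) in wildtype. Without Socs2 it fell by 0.32 ± 0.08 (adjusted p = 0.0136) and by 0.39 ± 0.08 (adjusted p = 0.00574). The last of these was called under all 20 alternatives. In wildtype the 24 h call was lost without any wildtype 0 h or 24 h pool (0.0642 to 0.121) and with centring (0.169), and the 36 h call without either wildtype 0 h pool or wildtype 36 h replicate 1 (0.0607 to 0.12) and with centring (0.0657). In Socs2-null liver the 24 h call was lost without either Socs2-null 0 h pool or Socs2-null 24 h replicate 2 (0.0513 to 0.0775), with quantile normalization (0.0639) and with centring (0.0744). Of the 12 Kupffer cell and macrophage markers, all measured, 2 were called higher and 3 lower at 24 h in each genotype, and 2 higher and 2 lower at 36 h. Their summed level was 7454 to 8833 at 0 h and 7188 to 10559 later. Of the 2 measured erythroid markers 1 was called lower in each of the 4 comparisons with 0 h. The exocrine pancreas markers summed to 1239 to 1359 at 0 h and to 516 to 739 later. The part of these cell types in the fall of Apoe was not tested.

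Apoc3 encodes an inhibitor of lipoprotein lipase and of remnant uptake. It read 13398 and 13830 in wildtype at 0 h, 13398 and 13598 in Socs2-null at 0 h, 12781 and 13059 in wildtype at 24 h, 12095 and 11689 in Socs2-null at 24 h, 11945 and 11954 in wildtype at 36 h, and 12246 and 11681 in Socs2-null at 36 h. All later pools lay below all 0 h pools, yet no change passed. The values were -0.08 ± 0.07 and -0.19 ± 0.07 in wildtype (limma adjusted p = 0.427 and 0.0803) and -0.18 ± 0.07 and -0.17 ± 0.07 in Socs2-null liver (0.0658 and 0.0879). With the dimmest 50% of genes dropped, 3 of these passed: wildtype at 36 h (0.019), and Socs2-null at 24 h (0.0145) and 36 h (0.0184). Each passed under that 1 of the 20 alternatives only. Over the alternatives the wildtype change lay between -0.10 and 0.05 at 24 h, and between -0.21 and -0.08 at 36 h. In Socs2-null liver it lay between -0.21 and -0.08 at 24 h, and between -0.21 and -0.04 at 36 h.

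**Figure D3:**
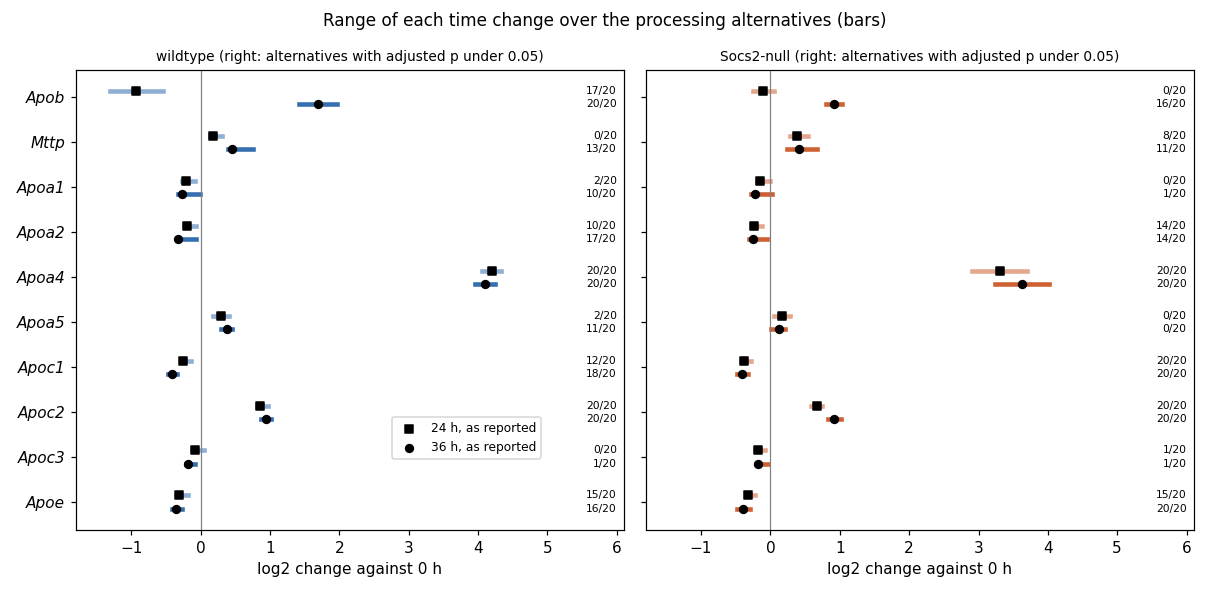
Range of each member's log2 change against 0 h over the 20 processing alternatives (bars), in wildtype and Socs2-null liver, with squares (24 h) and circles (36 h) at the reported value and the number of alternatives with limma adjusted p under 0.05 at the right. The bars of Apoa4 and Apoc2 lie far from 0 with 20 of 20, while those of Apoa1 and Apoa2 come close to 0. Bars cross 0 for Apoa1 in Socs2-null liver at 36 h, Apoc3 in wildtype at 24 h and Apob in Socs2-null liver at 24 h.

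Within the set the 12 arrays ordered several genes alike. Pearson r of log2(value + 16) was 0.98 between Apoa4 and Apoc2, 0.97 between Apoc1 and Apoe, 0.97 between Apoa2 and Apoc1, and -0.95 between Apoc2 and Apoe. All arrays share the time course, so these values describe it and carry no test. Apob followed the other members less closely, with r of 0.20 with Apoa4 and 0.32 with Apoc2, and from -0.51 (Apoc3) to 0.48 (Mttp) over all of them. Apoa5 also did, with r from -0.57 (Apoa1) to 0.64 (Apoc2). Among 10211 genes above background on every array and outside the list, those most like each member over the 12 arrays were Lcn2 (r = 0.99), Lrg1 and Insig2 for Apoa4, Cygb (0.94), Wbp1l and Mtmr1 for Apob, Gpd2 (0.95), Pmp22 and Csnk1g3 for Mttp, and Rps15a-ps6 (0.99), Mad2l2 and Rps4x for Apoc2. For the genes with lower later values they were Alas2 (0.99), Slco1a1 and Sult2a8 for Apoe, Sult2a8 (0.99), Otc and Rgn for Apoc1, Colec11 (0.99), Cyp4f13 and Cyp4b1 for Apoa2, Mug1 (0.95), Alb and Prdx4 for Apoa1, and Serpina1c (0.97), Dcxr and Sult5a1 for Apoc3. For Apoa5 they were Ciapin1 (0.92), Cdip1 and Gpt2.

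The product of Socs2 restrains signals from the growth hormone receptor, and the study asked how its loss alters regeneration. No member was called between the genotypes at 0 h, 24 h or 36 h, or averaged over the times, against 0.0%, 0.0117%, 0.0234% and 0.0292% of all genes in limma. At an unadjusted p under 0.05 there were 1, 2, 2 and 2 of the 10 members in the same order, and 847, 1408, 1101 and 1750 of all genes (4.95%, 8.24%, 6.44% and 10.2%). At 24 h, 8 members did not overlap between the genotypes, 2 with the null pools above (15.0% of all genes) and 6 with them below (19.1%). At 0 h it was 3 above and 2 below (13.9% and 27.9% of all genes), and at 36 h 0 above and 2 below (15.2% and 17.6%).

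Apob differed most between the genotypes, in opposite directions at the later times. The null pools at 24 h (914 and 735) lay above the wildtype pools (620 and 357), a difference of 0.78 ± 0.24 (95% interval 0.25 to 1.30, limma adjusted p = 0.46). At 36 h they lay below, at 1551 and 1815 against 3594 and 2455, a difference of -0.82 ± 0.24 (95% interval -1.34 to -0.29, adjusted p = 0.531). At 0 h the difference was -0.05 (95% interval -0.57 to 0.48). The genotype difference in the change from 0 h was 0.82 ± 0.34 at 24 h and -0.77 ± 0.34 at 36 h (unadjusted p = 0.0326 and 0.0428, limma adjusted p = 0.9999 and 0.9989). The 24 h difference between the genotypes was 0.39 without wildtype 24 h replicate 2 and 1.16 without replicate 1, and the 36 h difference was -0.54 without wildtype 36 h replicate 1 and -1.09 without replicate 2.

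For Apoa4 the null pools were higher at 0 h by 0.60 ± 0.23 (95% interval 0.09 to 1.10, limma adjusted p = 0.944) and lower at 24 h by a difference of -0.30 ± 0.23 (95% interval -0.81 to 0.20). The genotype difference in the change to 24 h was -0.90 ± 0.32 (unadjusted p = 0.0178) and did not pass over all genes. Leaving out Socs2-null 0 h replicate 1 gave a 0 h difference of 0.21 for Apoa4, and leaving out replicate 2 gave 0.99. The difference in the change to 24 h was then -0.51 and -1.29. For Mttp the null minus wildtype difference on the first probe set was 0.15, 0.35 and 0.10 at the 3 times (95% interval at 24 h 0.07 to 0.63, adjusted p = 0.512). On the other it was 0.03, 0.43 and -0.09, so the probe sets gave opposite signs at 36 h. Without Socs2-null 36 h replicate 1 the first probe set gave -0.06 there as well. Apoa5 was lower at all 3, by a difference of -0.08, -0.20 and -0.33 (95% interval at 36 h -0.58 to -0.09, adjusted p = 0.619), and averaged over the times by -0.20 ± 0.06 (adjusted p = 0.332). For Apoa1, Apoa2, Apoc1 and Apoe the genotype difference at each time lay between -0.09 and 0.05 on the probe sets that stood for the genes. The other Apoa1 probe set gave 0.08 at 24 h (limma adjusted p = 0.827). Its null pools (13471 and 13946) lay above the wildtype pools (13089 and 12780), while those of the first overlapped. For Apoc2 and Apoc3 the differences farthest from 0 were -0.16 and -0.12, both at 24 h. No member was called for a genotype difference in its 24 h or 36 h response, against 0.0% and 0.00585% of all genes. An unadjusted p under 0.05 was reached by 2 members and 1 member, against 3.78% and 3.74% of all genes.

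**Figure D4:**
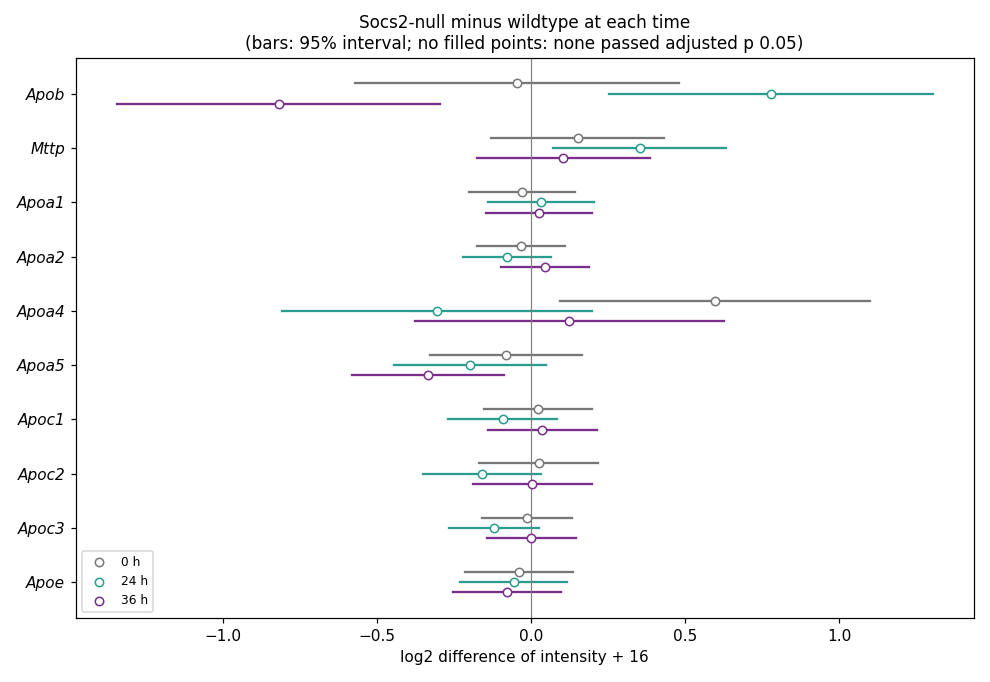
Socs2-null minus wildtype on the log2(intensity + 16) scale for each member at 0 h, 24 h and 36 h, with 95% intervals as bars and open points because none passed limma adjusted p of 0.05. Apob lies at 0.78 at 24 h and at -0.82 at 36 h, and the intervals of most other members include 0.

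Of 78 genes listed around lipoprotein metabolism, in 6 lists, 64 were measured. In wildtype 12 were called higher and 23 lower at 24 h, which is 18.8% and 35.9% of the 64 against 10.2% and 15.6% of all genes. At 36 h it was 12 and 15 (18.8% and 23.4% against 5.69% and 9.5%). In Socs2-null liver it was 10 and 20 at 24 h (15.6% and 31.2% against 10.8% and 13.5%) and 14 and 21 at 36 h (21.9% and 32.8% against 9.84% and 10.1%). Between the genotypes limma called 0 at 0 h, 24 h or 36 h, with 1, 13 and 9 at an unadjusted p under 0.05 (1.56%, 20.3% and 14.1%, against 4.95%, 8.24% and 6.44% of all genes). The counts of the single lists that follow stand against the same shares of all genes. Of the 16 assembly and secretion genes, 6 rose and 6 fell in wildtype at 24 h, with a median of 0.01. Surf4, a cargo receptor for export from the endoplasmic reticulum, rose 1.78-fold in wildtype at 24 h (limma adjusted p = 0.000997) and 1.88-fold in Socs2-null liver (adjusted p = 0.000417). P4hb, the partner subunit of Mttp in the transfer complex, rose 1.44-fold and 1.36-fold (adjusted p = 0.00201 and 0.00403). Ces1d, a carboxylesterase that mobilises triglyceride for VLDL, read 4605 and 4283 in wildtype at 0 h and 1091 and 1052 at 36 h. In Socs2-null liver it read 4397 and 4405 at 0 h, and its 36 h pools lay farther apart, at 1474 and 745. It fell by 2.04 ± 0.28 on the log2 scale at 36 h in wildtype (adjusted p = 0.00159) and by 2.05 ± 0.28 in Socs2-null liver (adjusted p = 0.00103).

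The Apob transcript is edited by Apobec1 with helper proteins, and 3 of the 4 listed genes were measured. Apobec1, the deaminase, fell by 0.60 ± 0.18 in wildtype at 24 h (limma adjusted p = 0.0333) and by 0.56 ± 0.18 in Socs2-null liver (adjusted p = 0.0452). Rbm47, a cofactor of editing, fell by 0.77 ± 0.15 in wildtype at 24 h (adjusted p = 0.00508), and its value in Socs2-null liver was -0.39 (adjusted p = 0.0831). At 36 h neither passed: Apobec1 was at -0.16 in wildtype and -0.44 in Socs2-null liver (adjusted p = 0.605 and 0.117), and Rbm47 at -0.36 and -0.37 (adjusted p = 0.133 and 0.114). Syncrip, an RNA-binding protein, rose 1.44-fold in wildtype and 2.03-fold in Socs2-null liver at 24 h (adjusted p = 0.0176 and 0.000641), and 2.29-fold and 2.52-fold at 36 h (adjusted p = 0.000409 and 0.000136).

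Of the 11 other apolipoproteins limma called 5 lower in wildtype at 24 h, 3 at 36 h, and 4 at each time in Socs2-null liver. It called 0 higher at either time, and 0 were higher at an unadjusted p under 0.05. Apom, a carrier of sphingosine 1-phosphate, fell by 0.71 ± 0.12 at 24 h (limma adjusted p = 0.00234), and Apoh by 0.37 ± 0.08 (adjusted p = 0.00786), both in wildtype. In Socs2-null liver they fell by 0.66 ± 0.12 and by 0.39 ± 0.08 (adjusted p = 0.00277 and 0.00536). Apoc4, the neighbour of Apoc2, fell by 0.29 ± 0.07 in wildtype and by 0.51 ± 0.07 in Socs2-null liver at 24 h (adjusted p = 0.0176 and 0.00101).

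Of 6 measured lipoprotein receptor genes 1 rose and 0 fell in wildtype at 24 h by limma (1 was lower at an unadjusted p under 0.05), 2 rose and 1 fell at 36 h, and 2 rose and 1 fell at each time in Socs2-null liver. Lsr, a remnant receptor, rose 1.30-fold in wildtype and 1.74-fold in Socs2-null liver at 24 h (limma adjusted p = 0.0293 and 0.00085). Cd36, a fatty acid transporter, rose 1.98-fold in wildtype and 1.80-fold in Socs2-null liver at 36 h (adjusted p = 0.00542 and 0.00773). Lrp1, the large remnant receptor, fell by 0.62 ± 0.16 at 24 h in Socs2-null liver (adjusted p = 0.0146), with a wildtype value of -0.30 (adjusted p = 0.18). The genotype difference in that response was -0.33 ± 0.22 (adjusted p = 0.9999).

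Of the 10 measured plasma remodelling genes 2 rose and 4 fell in wildtype at 24 h, 1 and 4 at 36 h, and 0 and 3, then 2 and 6, in Socs2-null liver by limma. At 24 h in Socs2-null liver 2 were higher at an unadjusted p under 0.05. Npc1, the lysosomal cholesterol exporter, fell by 0.84 ± 0.12 in wildtype and by 0.97 ± 0.12 in Socs2-null liver at 24 h (limma adjusted p = 0.00144 and 0.000539). Pltp, the phospholipid transfer protein, fell by 0.62 ± 0.11 in wildtype and by 0.34 ± 0.11 in Socs2-null liver at 36 h (adjusted p = 0.00372 and 0.0457). Angptl8, a feeding-induced inhibitor of lipase action, read 851 and 597 in wildtype and 313 and 529 in Socs2-null liver without surgery. The 36 h pools read 598 and 1006 in wildtype and 1724 and 2044 in the null. It rose 4.47-fold at 36 h in Socs2-null liver (adjusted p = 0.00266), with a log2 change of 0.12 in wildtype (adjusted p = 0.849). The genotype difference in that response was 2.04 ± 0.50 and did not pass (adjusted p = 0.9989).

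Of 18 measured transcription factors of these genes 2 rose and 6 fell in wildtype at 24 h, and 2 rose and 5 fell in Socs2-null liver. Cebpa, a hepatocyte identity factor, fell by 1.60 ± 0.21 at 24 h in wildtype (limma adjusted p = 0.000909) and, in Socs2-null liver, fell by 1.61 ± 0.21 (adjusted p = 0.00064). Ppargc1b, a coactivator of lipid metabolism, fell by 1.52 ± 0.18 in wildtype and by 1.72 ± 0.18 in Socs2-null liver (adjusted p = 0.00042 and 0.000166). Ppara, the fatty acid sensing nuclear receptor, fell by 0.91 ± 0.15 and by 1.05 ± 0.15 (adjusted p = 0.00204 and 0.000809). At 36 h 3 of these factors rose and 4 fell in wildtype, and 4 rose and 4 fell in Socs2-null liver. Cebpa and Ppargc1b were then still called lower in both genotypes. Ppara was at -0.28 in wildtype (adjusted p = 0.228) and fell by 0.88 in Socs2-null liver (adjusted p = 0.00217), and the genotype difference in that response did not pass (adjusted p = 0.9989). These lists were drawn up with earlier results of the arrays known, so their counts are a description.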

How the data were processed

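The deposited values were linear intensities per probe set of 1-colour Affymetrix arrays, which the authors obtained from biotin-labelled RNA, per the labels' protocols. How the authors corrected background, summarized probes and normalized is not given in the sources used here. Of 45141 probe sets, 28898 named 1 gene and 551 several, which were left out. Values were log2(value + 16) transformed, and 1 probe set stood for each of 17097 genes. A group-means model over all 12 arrays was fitted with limma 3.58.1 in R 4.3.3 (eBayes with trend and robust) for 12 comparisons, with two-sided tests, p-values adjusted by Benjamini-Hochberg across the 17097 genes, and calls at 0.05. Array number limits the precision. The p-values compare each difference with a spread between pools that was estimated over all 6 groups, and variation between single animals was not measured. Background was the brightest of 17 control tags on each array. Members, pathway lists and marker lists were chosen with earlier results of these data known. Named genes were all 10 members, up to 3 called genes of each of the 6 lists by smallest adjusted p, and the 3 genes most correlated with each member. The alternatives were 8 other settings and 12 refits without an array. The fitting steps were tested on simulated data.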

Additional observations from a re-analysis of the deposited data

Results flagged for a closer look

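Apob, Apoa4 and Apoc1 had null pools wholly on one side of the wildtype pools at 1 time and wholly on the other side at another. With 2 pools a group, 41.8%, 34.2% and 32.9% of all genes did not overlap between the genotypes at 0 h, 24 h and 36 h. The share of all genes that switched sides was not counted, so these members are not shown to be unusual. For Apob the null pools were above at 24 h and below at 36 h. The change of the genotype difference from 24 h to 36 h was -1.60 ± 0.34 on the log2 scale (95% interval -2.34 to -0.85, unadjusted p = 0.000605). It did not pass over all genes in limma (adjusted p = 0.862, 0 genes called), and this comparison was chosen after seeing the data. For Apoa4 the null pools were above at 0 h and below at 24 h, and the change of the difference was -0.90 ± 0.32 (adjusted p of 0.999 or above). For Apoc1 the null pools were above at 0 h and below at 24 h, and the change was -0.11 ± 0.11 (95% interval -0.36 to 0.13). The causes were not tested.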

How the results depend on the processing

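Of 120 member values 29 were called, 13 of them under all 20 alternatives, and none of the 29 changed sign. Of the uncalled values 6 passed under at least 1 alternative. With quantile normalization 5 members were called in wildtype at 36 h and 3 in Socs2-null liver at 24 h. The main fit called 9 and 6. Among all genes 2441 and 3844 were called with quantile normalization, and 2597 and 4146 in the main fit. In wildtype at 24 h quantile normalization called 4 members and 3923 genes (main fit 6 and 4417). In Socs2-null liver at 36 h it called 5 members and 3451 genes (main fit 7 and 3415). Called genes in wildtype from 24 h to 36 h were 41, but 26 with centring, 24 with a replicate block and 13 with only the arrays compared. With only the arrays compared, 0 were called between genotypes at 24 h, 2440 in Socs2-null at 24 h, 0 there from 24 h to 36 h, and 2 for the genotype difference in the 36 h response, which gave 0 with centring and 0 with probe sets averaged. With a pseudocount of 64, 3 were called for the averaged genotype difference.

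The replicate numbers shared no animal, so the main fit did not pair pools by number. Deviations of same-numbered pools correlated between -0.50 and 0.35 over 15 pairs of groups, 3 of them over 0.1. Whether some pools shared a processing batch was not tested, and the labels name none. With the replicate block 2 genes were called between genotypes at 0 h, 7 at 36 h and 3 on average.

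Without 1 array, 2 to 6 members were called in wildtype at 24 h and 3 to 9 at 36 h, and in Socs2-null liver 3 to 6 at 24 h and 4 to 7 at 36 h. The low counts were 2 without either wildtype 0 h pool or wildtype 24 h replicate 2 and 3 without replicate 1, then 3 without either wildtype 0 h pool and 5 without wildtype 36 h replicate 1, then 3 and 4 without either Socs2-null 0 h pool. Called genes ranged from 1359 to 4946, 581 to 3063 and 1 to 180 in wildtype (24 h, 36 h, and 36 h against 24 h), from 2014 to 4333, 1563 to 3949 and 1 to 8 in Socs2-null liver, from 0 to 20, 0 to 55, 1 to 16 and 1 to 19 between genotypes (0 h, 24 h, 36 h, average), and from 0 to 12 and 0 to 13 for the response differences. An array left out leaves a group of 1 pool, which is assumed to vary like the others. The lowest member value, 357, lay above the brightest control tag, 45.0.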
